A study of Homo sapiens with 3 samples.

Results

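The nuclear pore complex genes described here are 32 genes picked by symbol from a list of its subunits and close partners, and all 32 were found among the 26151 genes of the deposited tables. They were followed in 3 libraries of RNA-seq from MTAC-P, a line derived from the lung cancer line PC9 that resists inhibitors of the EGFR tyrosine kinase. The control group is 1 library of MTAC-P cells with a short hairpin against luciferase, and the shBCAT1 group is 2 libraries of the same line with a short hairpin against BCAT1, the cytosolic branched-chain aminotransferase. All were grown in medium with serum, and no drug, time point or vector is named for any of them. The series' design text speaks of triplicates, while 1 control and 2 shBCAT1 libraries were analysed here. The labels leave unsaid whether shBCAT1 1 and shBCAT1 2 are separate cultures, clones or hairpins. The p-values set the difference from the control only against the spread between these 2 libraries, drawn toward that of all genes tested. That spread may be technical.

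Values are FPKM, fragments scaled to the length of the transcript and to the mapped fragments of the library, so levels of different genes can be compared per length. FPKM over all entries summed to 53898 in the luciferase control, 44313 in the library labelled shBCAT1 1 and 46145 for that labelled shBCAT1 2. BCAT1 stood at 0.213, 1.05 and 0.241 FPKM in that order, so the targeted gene was not lower in either library labelled shBCAT1. For the library labelled shBCAT1 1 its confidence bounds (0.836 to 1.27) lay above those of the control (0.134 to 0.297). Those of the library labelled shBCAT1 2 (0.162 to 0.325) overlapped the control. Directions below follow the labels alone. The epithelial keratin genes KRT8, KRT18 and KRT19 reached 87.7 FPKM or more in every library. The other epithelial markers were lower, EPCAM at 3.86, 3.28 and 3.91 FPKM and CDH1 at 0.923, 0.951 and 1.24. The 4 lung epithelial markers were at or near 0, with sums of 0.325, 0.0571 and 0.103 FPKM. The highest was NAPSA in the control (0.224), and SFTPC was at 0 throughout. Of 4 fibroblast genes, COL1A2, COL3A1 and DCN were listed at 0 in all 3 libraries, and COL1A1 was at 0.105, 0.259 and 0.203 FPKM. The leukocyte gene PTPRC was at 0 throughout, while the list of 3 leukocyte genes summed to 3.42, 3.56 and 3.6 FPKM, nearly all of it CD68. The part of such cells in the results was not tested. RNA was taken from whole cultures, where fewer cells and less RNA per cell cannot be told apart.

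The nuclear pore complex is the channel through which proteins, ribosomal subunits and messenger RNA pass between nucleus and cytoplasm. Ring-shaped scaffolds sit in the fused nuclear membranes, and subunits with phenylalanine-glycine (FG) repeats fill the channel, where they bind transport receptors. A basket on the nuclear face and filaments on the cytoplasmic face handle cargo that enters or leaves. Several subunits also work elsewhere: SEC13 is part of the COPII coat of secretory vesicles, and SEC13 and SEH1L belong to GATOR2, which relays amino acid levels to mTORC1.

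Promoter sequence is shown for the member with the largest difference in 1 library (NUP214), the member that stood apart from the control in both (NUP210) and an FG subunit of high and even level (NUP62). Each run is the 250 bases before the annotated start, read 5′ to 3′ on the gene's strand from RefSeq (GRCh38.p14), with motif matches in capitals. NUP214 lies at chr9:131125336-131125585 (plus strand), NUP210 at chr3:13420323-13420572 (minus strand) and NUP62 at chr19:49929505-49929754 (minus strand).
NUP214: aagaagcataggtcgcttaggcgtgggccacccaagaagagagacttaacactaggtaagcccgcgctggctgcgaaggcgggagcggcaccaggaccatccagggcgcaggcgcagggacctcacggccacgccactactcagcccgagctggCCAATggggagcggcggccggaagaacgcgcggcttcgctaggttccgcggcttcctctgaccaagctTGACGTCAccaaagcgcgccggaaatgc
NUP210: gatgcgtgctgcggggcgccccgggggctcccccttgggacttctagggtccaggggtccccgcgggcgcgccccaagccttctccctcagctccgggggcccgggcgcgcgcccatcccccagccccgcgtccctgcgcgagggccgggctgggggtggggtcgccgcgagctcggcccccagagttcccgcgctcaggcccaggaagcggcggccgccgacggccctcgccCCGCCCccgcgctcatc
NUP62: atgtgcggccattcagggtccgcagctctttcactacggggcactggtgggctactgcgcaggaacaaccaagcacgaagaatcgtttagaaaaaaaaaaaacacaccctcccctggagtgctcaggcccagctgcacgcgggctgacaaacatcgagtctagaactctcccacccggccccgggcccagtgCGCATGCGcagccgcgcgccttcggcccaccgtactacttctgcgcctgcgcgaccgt
Both strands were searched for the GC box (GGGCGG), the CCAAT box (CCAAT), the ETS motif (CCGGAAGT), the cyclic AMP response element (TGACGTCA) and the core of the NRF1 motif (CGCATGCG), none of which holds another. The capitals are a CCAAT box and a cyclic AMP response element in NUP214, a GC box in NUP210 and an NRF1 core in NUP62. Among all 35116 RefSeq promoters these letters occur in 32%, 1.65%, 42.6% and 1.73% in the order just given, and the ETS motif in 3.42%. In the 37 promoters of the 29 members that matched the table, the CCAAT box was found in 13, the cyclic AMP response element in 3, the GC box in 17, the NRF1 core in 3 and the ETS motif in 8. These are letter matches, and the motifs were chosen after the promoters had been looked at.

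The 32 genes were read at low levels, with medians of 0.495 FPKM in the luciferase control, 0.502 in the library labelled shBCAT1 1 and 0.618 for that labelled shBCAT1 2. The median over all 10596 genes averaging 0.1 FPKM or more, a floor that every member passes, was 0.577, 0.536 and 0.628. SEC13 was the highest member in each library, at 3.57, 4.18 and 5.2 FPKM. The lowest was NUP160 in the control and in the library labelled shBCAT1 1 (0.103 and 0.0498 FPKM) and NUP133 in the library labelled shBCAT1 2 (0.154). Together the members made up 0.0512%, 0.0599% and 0.0773% of the FPKM total.

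**Figure D1:**
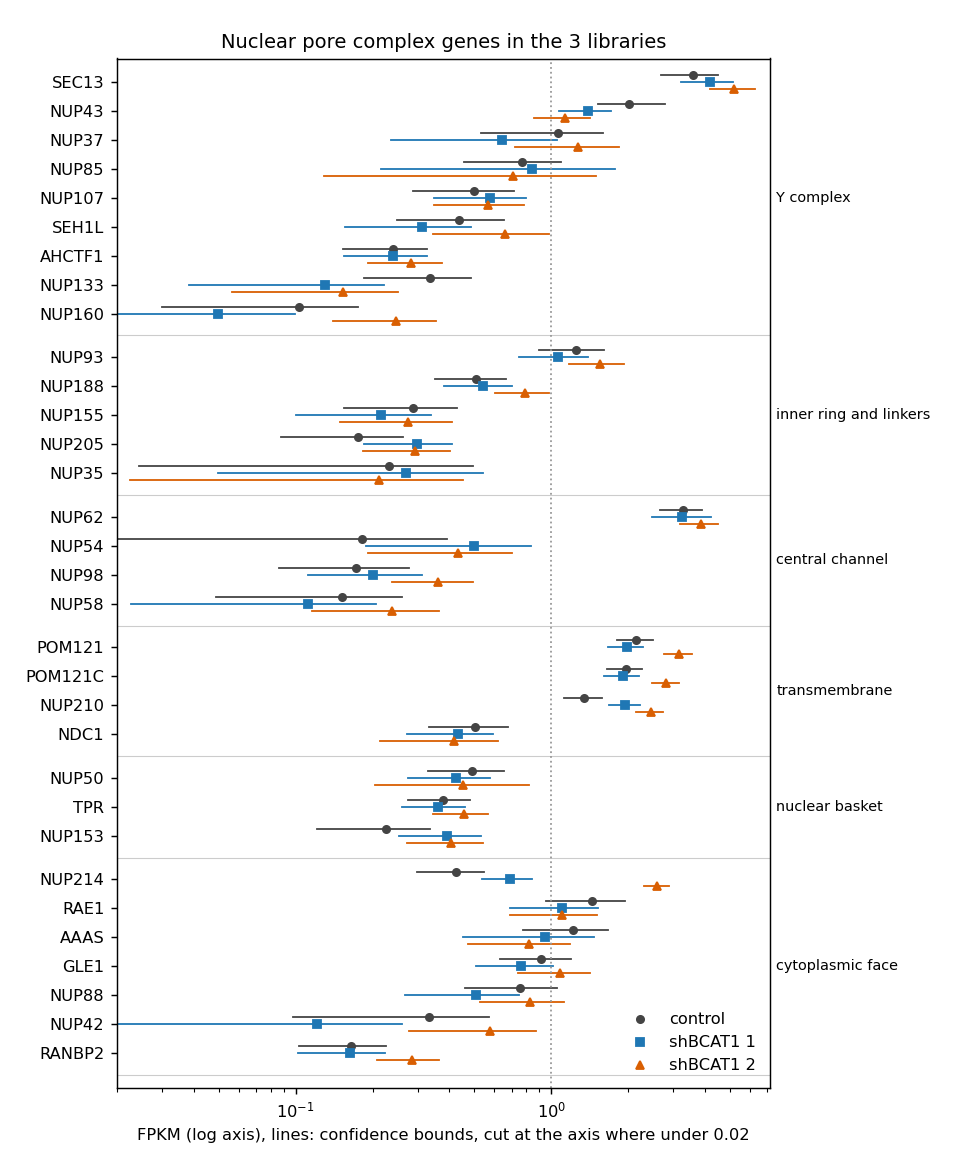
Level of each of the 32 genes in FPKM (log axis) in the control (circles), the library labelled shBCAT1 1 (squares) and the library labelled shBCAT1 2 (triangles), by position in the complex. Lines are the confidence bounds of the authors' values, combined over entries, and the dotted line marks 1 FPKM. NUP214 reaches 2.6 FPKM in the library labelled shBCAT1 2 with bounds clear of the other libraries, while most members have overlapping bounds.

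The depth behind these values is small. The square of a value over its own SD, taken from the bounds, gives an equivalent number of fragments, called here what the value is worth. For the 14 members with a single entry this came out whole (within 0.05) in 33 of 42 values. For members with more entries the bounds also carry error of assignment between transcripts, so the number is not a count of fragments. NUP85, for example, gave 23.1, 3.27 and 3.23 at 0.772, 0.843 and 0.709 FPKM. The members' median was worth 28 fragments in the luciferase control, 28.1 in the library labelled shBCAT1 1 and 28.6 for that labelled shBCAT1 2, and values ran from 3 fragments (NUP42, library labelled shBCAT1 1) to 315.5 (NUP214 in the library labelled shBCAT1 2). Bounds cover counting and assignment error inside a library, not the spread between libraries.

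None of the members passed a test of the difference between groups. With limma on log2(FPKM + 1) over the 3868 genes averaging 1 FPKM or more, 9 members were tested and 0 had an adjusted p of 0.05 or less, with values from 0.797 to 0.977. Of all genes tested, 0.362% were called. At an unadjusted p under 0.05, 0 members were called in either direction, where 0.569% of all genes were higher and 5.02% lower. The other 23 members had a mean under 1 FPKM, NUP37 at 0.994 and AAAS at 0.996 just below it. NUP214 passed the minimum only through the library labelled shBCAT1 2. Over the 10596 genes averaging 0.1 FPKM or more, 0 of 32 members were called by limma, also at an unadjusted p under 0.05, beside 0.142% of all genes after adjustment and 1.13% (higher) and 3.53% (lower) before it. The lowest unadjusted p was 0.062 for NUP54 (0.044 with a pseudocount of 0.1), and the lowest limma adjusted p was 0.986. The design is small: an exact permutation of 3 libraries cannot go below a two-sided p of 0.333.

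By value alone, 9 of 32 members were higher than the control in both libraries labelled shBCAT1, 7 were lower in both and 16 lay on either side. Over all genes averaging 0.1 FPKM or more, 30.4% were higher in both and 35.9% lower in both, so the members' 28.1% and 21.9% are near or below the background. With median-of-ratios scaling or quantile normalization, 6 of the 9 members averaging 1 FPKM or more were higher in both, against 3 as deposited. The share of all genes moved too, from 25.6% as deposited to 35.9% and 38.3% under these scalings. They moved the median of all genes in the library labelled shBCAT1 1 from -0.12 to -0.0058 and 0.019 on the log2 scale. The median log2(FPKM + 1) difference of the 32 members was 0.031, beside -0.0047 for all genes. Per library it was -0.040 (all genes -0.045) for the library labelled shBCAT1 1 and 0.14 (all genes 0.031) for that labelled shBCAT1 2. These comparisons share the single control library. Between the libraries labelled shBCAT1, which do not involve the control, 23 of 32 members were higher in shBCAT1 2, or 71.9%, beside 66.3% of all genes. The members' transcripts are long, with a median of 5090 bases beside 2533 for all genes at the same floor. With a trend on length removed, the median difference of the 9 members tested at a mean of at least 1 FPKM was 0.086 beside 0.0063 for all genes, where it was 0.16 beside -0.059 without that step.

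Bounds lay above those of the control in both libraries for 1 member, NUP210 (0.755% of all genes), and below them in both for 0 members (1.62% of all genes). In the library labelled shBCAT1 2 alone the bounds were above the control for 4 members, NUP210, NUP214, POM121 and POM121C (4.87% of all genes), and below it for NUP43 (3.43%). In the library labelled shBCAT1 1 they were above the control for NUP210 (1.14%) and below it for 0 members (3.52%). Bounds in the library labelled shBCAT1 2 lay above those of shBCAT1 1 for 5 members, NUP160, POM121, POM121C, NUP214 and NUP42 (4.87% of all genes), and below them for 0 (1.08%). Among genes averaging 1 FPKM or more, 1.27% had bounds above the control in both libraries and 4.24% below.

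**Figure D2:**
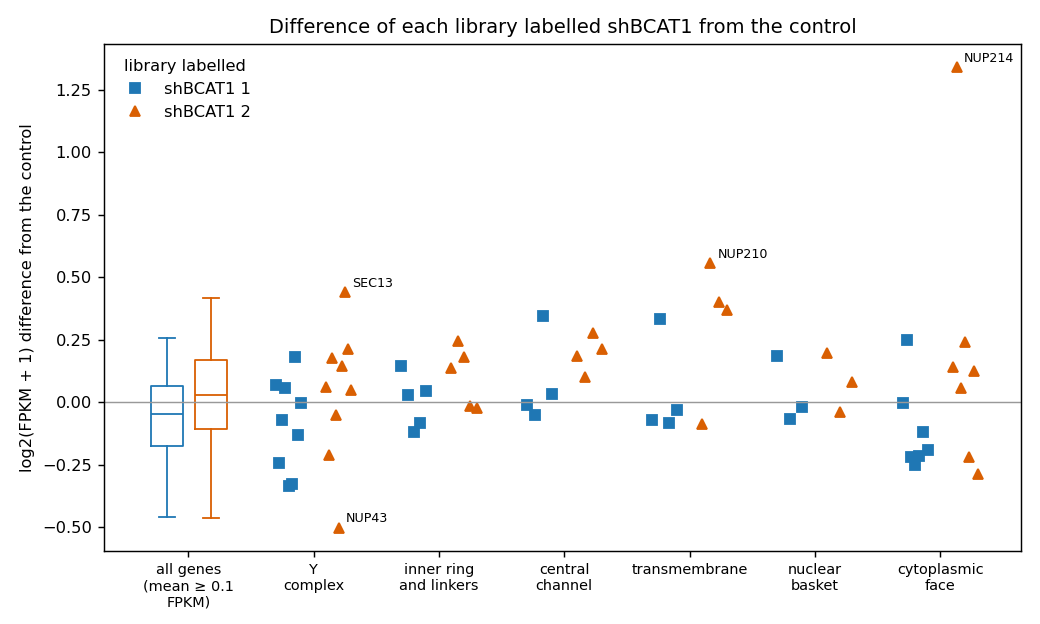
Difference in log2(FPKM + 1) from the single control library for each member, in the library labelled shBCAT1 1 (squares) and the library labelled shBCAT1 2 (triangles), by position in the complex. Boxes at the left show the quartiles and the 5th to 95th percentiles of all genes averaging 0.1 FPKM or more. NUP214 stands at 1.34 in the library labelled shBCAT1 2, and most other members lie within the range of all genes.

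NUP214 carried the largest difference of the 32 genes, in 1 library. It encodes an FG subunit of the cytoplasmic filaments that binds the export receptor XPO1 and, with NUP88, anchors the mRNA export machinery (chromosome 9, 131125561 to 131234670, hg38). Its value was 0.423 FPKM in the luciferase control (bounds 0.299 to 0.546), 0.689 in the library labelled shBCAT1 1 (0.534 to 0.844) and 2.6 for that labelled shBCAT1 2 (2.31 to 2.9). These values are worth 47, 79 and 315.5 fragments. The library labelled shBCAT1 2 was thus 6.16 times the control and 3.78 times the library labelled shBCAT1 1, which itself was 1.63 times the control with bounds that overlapped it. The libraries labelled shBCAT1 averaged 1.65 ± 1.35 FPKM (SD, n = 2). The fitted log2(FPKM + 1) difference of 0.79 ± 0.50 (SE) had a limma adjusted p of 0.801. No other gene holds a 50-base word of its transcript in GENCODE. A pair of antisense genes, AL157938.2 and AL157938.3, share 667 and 529 of its exon bases, and without knowledge of the strand their reads cannot be told from those of NUP214.

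Genes beside NUP214 were read in the same way. Of 9 genes within 600 kb with a mean of at least 0.1 FPKM, 7 exceeded the control in the library labelled shBCAT1 2, compared with 4 in that labelled shBCAT1 1. Over all genes at this floor 56.3% and 38.3% did so, in that order. Of 5 such genes around NUP210, 4 and 3 exceeded the control in the same order. PRRC2B stood at 2.12 FPKM in the luciferase control, 2.53 in the library labelled shBCAT1 1 and 3.86 for that labelled shBCAT1 2. RAPGEF1, which activates small GTPases of the Rap family, was at 0.584, 0.675 and 1.43 FPKM, and the tyrosine kinase gene ABL1 at 0.403, 0.393 and 0.687. The bounds of PRRC2B and RAPGEF1 in the library labelled shBCAT1 2 lay above those of the control. AIF1L, just upstream of NUP214, was at 1.38, 1.04 and 1.3 FPKM, with bounds that overlapped between all 3 libraries. The largest ratio to the control among these neighbours was 2.45, for RAPGEF1 in the library labelled shBCAT1 2.

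**Figure D3:**
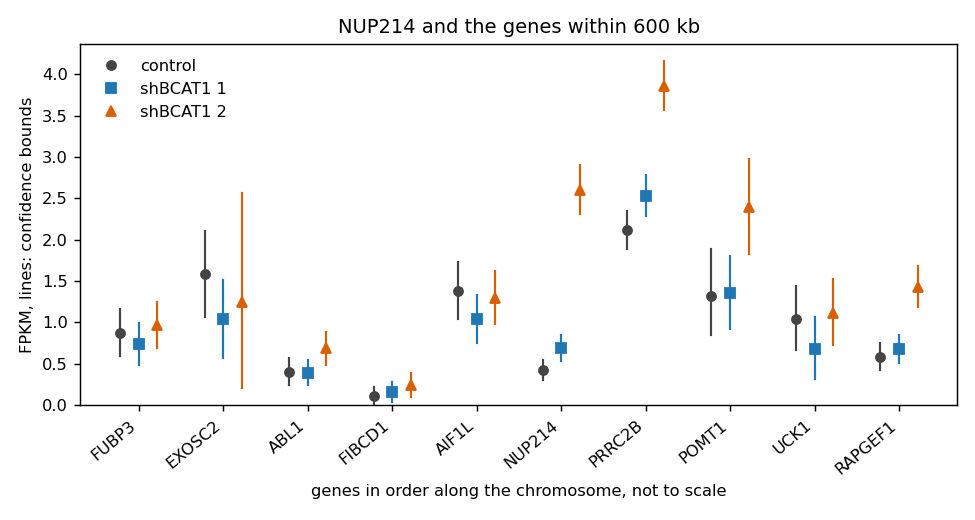
FPKM of NUP214 and the genes within 600 kb that have a mean of at least 0.1 FPKM, in chromosome order, in the control (circles) and the libraries labelled shBCAT1 1 (squares) and shBCAT1 2 (triangles), with confidence bounds as lines. NUP214 goes from 0.423 to 2.6 FPKM between the control and the library labelled shBCAT1 2, and AIF1L is at 1.38 and 1.3.

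The 7 genes of the cytoplasmic face summed to 5.25, 4.29 and 7.29 FPKM. Of these, 1 was higher in both libraries labelled shBCAT1 (NUP214), 2 were lower and 4 lay between. RAE1, which shuttles with messenger RNA and docks at NUP98, was at 1.45 FPKM in the luciferase control, 1.11 in the library labelled shBCAT1 1 and 1.1 for that labelled shBCAT1 2. It was lower in both, with overlapping bounds and a log2(FPKM + 1) difference of -0.22 ± 0.17 (SE, limma adjusted p 0.831). AAAS, the WD-repeat subunit mutated in triple A syndrome, was at 1.22, 0.946 and 0.822 FPKM, also lower in both with overlapping bounds. Both of these genes went against the direction of NUP214. GLE1, which activates the export helicase DDX19, was at 0.911, 0.76 and 1.08 FPKM. NUP88, the partner of NUP214, was at 0.754, 0.507 and 0.825 FPKM, with overlapping bounds. The level of NUP88 therefore lay near the control in the library labelled shBCAT1 2, at 1.09 times its value, where NUP214 was at 6.16 times. NUP42, an FG subunit that works with GLE1, was at 0.334, 0.121 and 0.574 FPKM, worth 8, 3 and 15 fragments. Of these genes, NUP88 shares 520 exon bases with RPAIN on the opposite strand, and NUP42 shares 566 with AC005082.2. RANBP2, the large filament protein that acts as a SUMO ligase and binds Ran, was at 0.165, 0.163 and 0.285 FPKM. RANBP2 is uncertain, since 27.1% of its 50-base words also occur in 7 RGPD genes, which summed to 0.322, 0.298 and 0.417 FPKM. Most of that sum was RGPD5, at 0.213, 0.26 and 0.307 FPKM, and the authors' status was not OK for RGPD5 and RGPD8.

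Of the 4 transmembrane genes, which anchor the pore in the membrane, 1 was higher in both, NUP210, and 1 lower, with sums of 5.96, 6.26 and 8.84 FPKM. NUP210 encodes the glycoprotein that forms a ring in the lumen (chromosome 3, 13316230 to 13420319). It was at 1.35 FPKM in the luciferase control (bounds 1.12 to 1.57), 1.95 in the library labelled shBCAT1 1 (1.68 to 2.22) and 2.45 for that labelled shBCAT1 2 (2.16 to 2.74), worth 142, 212 and 281 fragments. Both libraries labelled shBCAT1 lay above the control with bounds apart, at 1.45 and 1.82 times its value. Their mean was 2.2 ± 0.35 FPKM (SD, n = 2), with a fitted difference of 0.44 ± 0.20 (SE) and a limma adjusted p of 0.797 (unadjusted 0.0951). No other gene holds a 50-base word of its transcript. NDC1, which ties the membrane ring to the inner scaffold, was at 0.504, 0.43 and 0.416 FPKM with overlapping bounds.

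POM121 and POM121C, which carry FG repeats and bind NUP155 at the membrane, are copies of each other on chromosome 7. Their coding sequences from GENCODE release 29 agree at 98.1% of 3678 aligned bases, with 70 differences, and 53.5% of the 50-base words of POM121 also occur in POM121C. Further genes share their words too. Over all other genes, 63.3% of the words of POM121 occur in 10 genes and 63.3% of those of POM121C in 11. The stretch of 90 coding bases below lies at coding positions 3613 to 3702 of POM121 and 3553 to 3642 of POM121C. It was picked for the most differing bases among stretches whose differences all lie near the middle, so it is not a typical one. Even there a read has little to tell POM121 and POM121C by. Capitals mark the 3 bases that differ.
POM121: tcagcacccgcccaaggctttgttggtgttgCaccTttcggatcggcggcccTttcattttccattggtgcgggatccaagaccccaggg
POM121C: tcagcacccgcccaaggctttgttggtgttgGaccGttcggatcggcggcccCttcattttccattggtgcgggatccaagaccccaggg
POM121 was at 2.15 FPKM in the luciferase control (bounds 1.81 to 2.49), 1.98 in the library labelled shBCAT1 1 (1.66 to 2.29) and 3.15 for that labelled shBCAT1 2 (2.75 to 3.55). POM121C was at 1.96 (1.66 to 2.26), 1.9 (1.61 to 2.2) and 2.82 FPKM (2.47 to 3.17). For both, the library labelled shBCAT1 2 stood above the other libraries with bounds apart, and the library labelled shBCAT1 1 overlapped the control. The log2(FPKM + 1) differences were 0.16 ± 0.28 for POM121 and 0.17 ± 0.25 for POM121C (SE), with limma adjusted p of 0.907 and 0.892. Their values are uncertain and are not independent of each other, since reads that fit both can be split either way. Reads that fit the further genes with shared words add to this. POM121 also shares 1849 exon bases with NSUN5P2 on the opposite strand, read at 2.79, 3.96 and 3.3 FPKM.

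The 4 genes of the central channel encode FG subunits, and 2 were higher and 0 lower in both libraries labelled shBCAT1, with sums of 3.78, 4.06 and 4.88 FPKM. NUP62, the core of the trimer with NUP58 and NUP54, was the second highest member, at 3.27 FPKM in the luciferase control (bounds 2.67 to 3.89), 3.25 in the library labelled shBCAT1 1 (2.48 to 4.23) and 3.85 for that labelled shBCAT1 2 (3.2 to 4.51). All 3 bounds overlapped, and the fitted difference was 0.09 ± 0.21 (SE, limma adjusted p 0.931). With transcripts kept apart, only the entry with the highest mean FPKM stands for each gene. For NUP62 that entry alone gave a difference of -0.35 (limma adjusted p 0.863), at 2.57, 1.13 and 2.71 FPKM. The next highest transcript of NUP62 moved the opposite way in each library labelled shBCAT1, at 0.702, 1.44 and 0.381 FPKM. NUP62 shares 626 exon bases with ATF5 on the opposite strand and 336 with IL4I1 on its own strand. ATF5, a transcription factor of the stress response, was read at 31.2, 25.3 and 26.5 FPKM, and IL4I1 at 0, 0 and 0.118, and the part of such reads in the value of NUP62 was not tested. NUP58 and NUP54, its partners in the trimer, were low. NUP58 was at 0.152, 0.112 and 0.237 FPKM. NUP54 was at 0.181, 0.498 and 0.433 FPKM, higher in both with overlapping bounds. By those bounds, which include assignment between its transcripts, the values are worth 3, 8.79 and 10.4 fragments. A single transcript held 100% of NUP54 in the control and in the library labelled shBCAT1 2. In the library labelled shBCAT1 1 others held 57.2% and 42.8%. NUP98, which keeps the channel's barrier tight and is cut from a precursor shared with NUP96, was at 0.172, 0.201 and 0.359 FPKM.

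The 9 genes of the Y complex, the scaffold of the outer rings, summed to 9.04, 8.37 and 10.2 FPKM, with 2 higher and 2 lower in both libraries labelled shBCAT1. SEC13 (chromosome 3, 10300929 to 10321188) was higher in both libraries labelled shBCAT1, at 3.57 FPKM in the control (bounds 2.69 to 4.5) against 4.18 (3.23 to 5.16) and 5.2 (4.19 to 6.25). The bounds overlapped, and the difference of 0.31 ± 0.22 (SE) had a limma adjusted p of 0.803. NUP43 went the other way, at 2.02 FPKM in the luciferase control (1.52 to 2.79), 1.39 in the library labelled shBCAT1 1 (1.07 to 1.72) and 1.13 for that labelled shBCAT1 2 (0.856 to 1.42). Its difference of -0.42 ± 0.19 (SE) was the lowest among the tested members, with a limma adjusted p of 0.797 (unadjusted 0.0892). NUP43 shares 223 exon bases with PCMT1 on the opposite strand, and PCMT1 was also lower in both, at 3.55, 2.32 and 2.43 FPKM. Whether those reads bear on NUP43 was not tested.

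The arms and stalk of the Y were low. NUP133, at the tip of the stalk, was at 0.335 FPKM in the luciferase control, 0.13 in the library labelled shBCAT1 1 and 0.154 for that labelled shBCAT1 2, worth 20, 8 and 10 fragments. It stood at 0.388 and 0.459 times the control, with bounds that overlapped it in both, and its unadjusted p was 0.0669 at the lower floor (limma adjusted p 0.986). NUP107, its partner in the stalk, was at 0.501, 0.574 and 0.564 FPKM, so the partners did not keep 1 direction. NUP160 was at 0.103, 0.0498 and 0.247 FPKM, and its bounds in the library labelled shBCAT1 2 lay above those in the library labelled shBCAT1 1. NUP85, which pairs with SEH1L on an arm, was at 0.772, 0.843 and 0.709 FPKM. The next genes lay on either side of the control. NUP37, which sits on an arm beside NUP160, was at 1.06, 0.644 and 1.28 FPKM. SEH1L, which is shared with GATOR2, was at 0.435, 0.313 and 0.662 FPKM with overlapping bounds. AHCTF1, also called ELYS, which brings the complex to chromatin after mitosis, was at 0.241, 0.24 and 0.282 FPKM. AHCTF1 is uncertain, because 49.6% of its 50-base words occur in the pseudogene AHCTF1P1, read at 0.0424, 0.0249 and 0.0495 FPKM.

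The 5 genes of the inner ring and its linkers summed to 2.45, 2.39 and 3.12 FPKM, with 2 higher and 1 lower in both. NUP93, which links the scaffold to the channel trimer, was at 1.25, 1.07 and 1.55 FPKM in the control, then the libraries labelled shBCAT1 1 and shBCAT1 2. Its difference was 0.031 ± 0.21 (SE, limma adjusted p 0.977). NUP188 was at 0.509, 0.54 and 0.789 FPKM and its paralog NUP205 at 0.176, 0.298 and 0.292. The RNA of both large scaffold genes thus read higher in both libraries labelled shBCAT1, with overlapping bounds. It was at 1.06 and 1.55 times the control for NUP188 and 1.7 and 1.66 times for NUP205. NUP155, a scaffold subunit that reaches the membrane, was at 0.288, 0.215 and 0.276 FPKM. NUP35, the linker that binds it, was at 0.232, 0.27 and 0.213 FPKM. By their bounds these values are worth 3.14, 4.02 and 3.14 fragments, so a difference of this size was not detectable within such bounds.

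The 3 genes of the nuclear basket had no common direction, with 1 higher in both, 1 lower and 1 between, and sums of 1.09, 1.18 and 1.31 FPKM. NUP153, an FG subunit that tethers the basket, was at 0.225, 0.391 and 0.405 FPKM, at 1.74 and 1.8 times the control with overlapping bounds. TPR, the coiled-coil protein that builds the basket, was at 0.378, 0.36 and 0.456 FPKM. NUP50, which helps to free import cargo and shares 15.3% of its 50-base words with other genes, was at 0.49, 0.424 and 0.453 FPKM. All bounds overlapped within each of these genes, and TPR shares 670 exon bases with PRG4 on the opposite strand.

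Which transcript held a gene's FPKM often changed from library to library. Of the 18 members with more than 1 RefSeq transcript, the leading transcript was not the same in all 3 libraries for 11, or 61.1%, beside 46.8% of 5641 such genes at a mean of at least 0.1 FPKM. For RAE1 a single transcript held 100% of the value in the control and in the library labelled shBCAT1 2, and another held 100% in the library labelled shBCAT1 1. NUP153 had 1 transcript at 100% in the control and in the library labelled shBCAT1 1, and a different transcript at 99.9% in the library labelled shBCAT1 2. NUP155 changed between the control, with 99.9% on 1 transcript, and both libraries labelled shBCAT1, with 100% on another. For NUP98 the transcript that held 73.6% and 84.6% in the control and the library labelled shBCAT1 1 was near 0 in the library labelled shBCAT1 2, where another held 84.3%. The summed values of these genes were closer between libraries than their parts, with RAE1 at 1.45, 1.11 and 1.1 FPKM. The files give no reads over junctions, so a change of isoform and a change of assignment cannot be told apart.

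**Figure D4:**
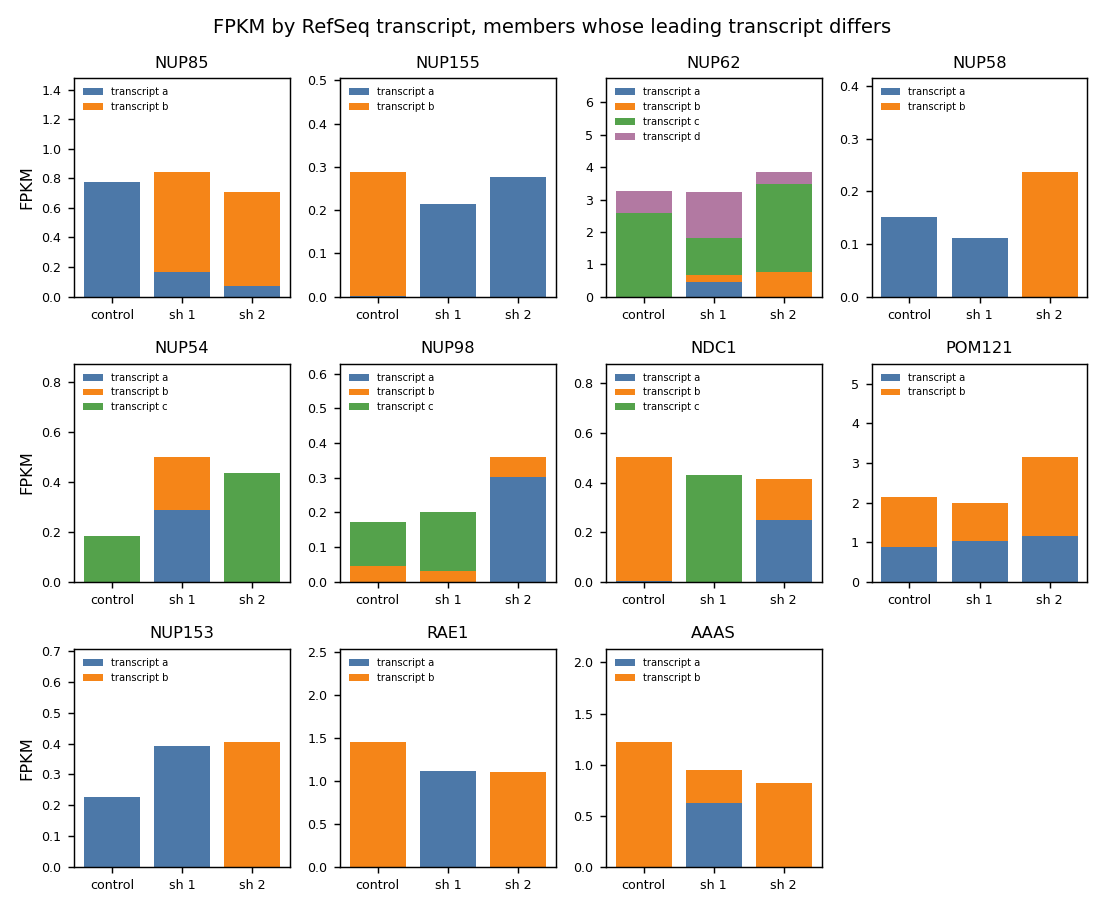
FPKM of each RefSeq transcript (stacked colours, letters assigned within a gene) for the 11 members whose leading transcript was not the same in all 3 libraries. Bars are the control, the library labelled shBCAT1 1 (sh 1) and the library labelled shBCAT1 2 (sh 2). RAE1, NUP153, NUP155 and NUP58 move nearly all of their FPKM from 1 transcript to another, and NUP54 and NDC1 shift between transcripts too.

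Genes that work with the pore were read from pathway lists. By limma 0 of them passed after adjustment in any list, where 0.362% of all genes averaging 1 FPKM or more were called. With an unadjusted p under 0.05 there was 1, the mRNA export cofactor NXT1 at 1.96, 1.13 and 1 FPKM (unadjusted 0.0399, limma adjusted p 0.797). It was singled out after its value was seen, and 5.02% of all genes at this floor were lower at that threshold and 0.569% higher. Among importins, exportins and their adaptors, 7 of 25 had a mean of at least 1 FPKM. Of these, 5 were higher in both libraries labelled shBCAT1 and 0 lower in both, and their median log2(FPKM + 1) difference was 0.12, where all genes gave -0.059. At this floor 25.6% of all genes were higher in both and 43.7% lower in both. XPO6, the exporter of actin, had the largest difference, at 1.37, 1.38 and 2.18 FPKM in the control, then the libraries labelled shBCAT1 1 and shBCAT1 2. KPNB1, the main import receptor, had the lowest, at 4.87, 3.99 and 5.05 FPKM.

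The 9 genes of the Ran cycle, which gives transport its direction, were all measured, with 3 higher and 4 lower in both and a median of -0.045. That median changed sign between libraries, at -0.21 for the library labelled shBCAT1 1 and 0.20 for that labelled shBCAT1 2, and was 0.0045 and 0.086 with median-of-ratios scaling and quantile normalization. RAN was at 9.56, 7.43 and 7.79 FPKM and its activating protein RANGAP1, the lowest, at 8.33, 6.45 and 6.41. RCC2 had the largest difference, at 1.83, 1.95 and 3.36 FPKM. Of 21 genes of mRNA export, 12 were measured, with 9 lower and 1 higher in both and a median of -0.18. DDX39B (7.8, 6.97 and 7.62 FPKM) and CHTOP (3.8, 2.17 and 2.8) also averaged over 1 FPKM but were left out because their status was not OK throughout. SARNP, a member of the TREX complex, was at 5.64, 4.46 and 2.43 FPKM, and THOC5, at the other end, at 2.38, 1.99 and 3.89. The receptor NXF1 was the gene higher in both, at 1.27, 1.32 and 1.4 FPKM.

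For the nuclear envelope and lamina, 7 of 18 genes were measured, 2 higher and 3 lower in both, with a median of -0.0068 that turned to 0.037 and 0.11 under median-of-ratios scaling and quantile normalization. LEMD2 was at 1.08, 1.59 and 1.98 FPKM and LMNA, the gene of lamins A and C, at 25.1, 20.2 and 23.5. Of the partners of SEC13 and SEH1L in COPII and GATOR2, 2 of 12 were measured, SEC24C at 1.8, 1.87 and 2.36 FPKM and SAR1A at 1.77, 1.34 and 1.56. The limma adjusted p of the genes named from these lists ran from 0.797 for LEMD2 to 0.947 for NXF1.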

How the data were processed

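The 3 libraries were mapped to groups by their titles. The authors' deposited values are FPKM for each RefSeq transcript and locus, with lower and upper confidence bounds. The build hg38 and the tools Cufflinks, TopHat and Trim Galore are named per the submitters' processing notes. No version, setting, role or library strand is given there. Each table held 56882 entries for 50337 accessions, of which a RefSeq table (GRCh38.p14) named 49281 and GENCODE release 29 another 645. FPKM was summed per gene symbol, and the half-widths of the bounds were combined as a root sum of squares and read as 2 SDs. Relative to the control, depth read from single-entry members was 1.03 for shBCAT1 1 and 1.09 for shBCAT1 2.

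Groups were compared with limma 3.58.1 (R 4.3.3) on log2(FPKM + 1), with an intensity trend, for genes of status OK and a mean of at least 1 FPKM, with two-sided p-values and Benjamini-Hochberg adjustment over all genes tested. Such differences understate the change of low genes. Since there is 1 control library, the pair labelled shBCAT1 alone sets a gene's own spread (1 residual degree of freedom). By limma each such spread was drawn toward the trend over all genes tested (3.02 prior degrees of freedom). The control is taken to share that spread. The fit was also run on simulated data, with the noise of every library drawn from the difference between the pair labelled shBCAT1. That run therefore cannot test whether the control spreads like this pair. Other steps used matplotlib 3.10.9, numpy 2.4.6, pandas 2.3.3 and Python 3.11.15. Transcript lengths, exon overlaps and shared 50-base words came from GENCODE transcripts, words on the same strand only. The members and lists were chosen with earlier results of these data known. All members are named, and from each related list the measured genes with the largest and lowest difference, with KPNB1, RAN, NXF1 and LMNA. Genes beside NUP214, and ATF5, IL4I1, PCMT1 and AHCTF1P1, were named after their values were seen, as was the floor of 0.1 FPKM chosen.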

Additional observations from a re-analysis of the deposited data

How the results depend on the processing

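No paired analysis was possible because there is 1 control library for 2 libraries labelled shBCAT1. The count of members past an adjusted p of 0.05 by limma was 0 under every alternative run, as was that of the related genes. In the run called transcripts kept apart, only the entry with the highest mean FPKM stands for each gene and its other entries are left out. Over all genes 14 were lower and 0 higher, against 0 lower with no filter, 8 lower at a mean of at least 5 FPKM, 8 lower with transcripts kept apart, 1 higher with a pseudocount of 0.1 at either floor, and 2 higher with the length trend removed. The median of the 9 measured members, 0.16, ran from 0.077 to 0.21 over the alternatives that keep these 9 and all libraries. It was 0.13 over 8 members with transcripts kept apart, 0.031 over 32 with no filter or a floor of 0.1 FPKM and 0.082 over 32 at that floor with a pseudocount of 0.1. It was 0.37 without shBCAT1 1 and -0.029 without shBCAT1 2; at 5 FPKM no member was left for it. Of the 9, 3 were higher and 2 lower in both libraries. With either quantile normalization or median-of-ratios scaling 6 were higher, with transcripts kept apart 1 of 8 was lower, at 5 FPKM 0 were left, and with no filter or a floor of 0.1 FPKM 9 of 32 were higher and 7 lower. Leaving out 1 library labelled shBCAT1, which leaves values with no test, gave 3 to 7 higher and 2 to 6 lower. Members with bounds above the control numbered 1, but 2 with median-of-ratios scaling or quantile normalization, 3 with transcripts kept apart and 1 to 4 without 1 library; those below numbered 0, but 1 with transcripts kept apart and 0 to 1 without 1 library. NUP62 was at 0.09 as summed and at -0.35 with transcripts kept apart, the latter for its highest entry alone. The median of mRNA export, -0.18, was -0.26 and -0.064 with pseudocounts of 0.1 and 5, -0.13 with no filter or a floor of 0.1 FPKM, -0.25 at that floor with a pseudocount of 0.1, -0.30 at 5 FPKM, -0.14 and -0.089 with median-of-ratios scaling and quantile normalization, -0.16 with transcripts kept apart or alternative sequences left out, and -0.11 with the length trend removed. The nuclear envelope median, -0.0068, was -0.10 at 5 FPKM, 0.037 and 0.11 under these scalings, -0.061 with transcripts kept apart and -0.077 at the floor of 0.1 FPKM with a pseudocount of 0.1. That of importins and exportins, 0.12, was 0.032 with no filter, and that of COPII and GATOR2 partners, -0.015, was 0.23 with transcripts kept apart and 0.032 and 0.0040 under these scalings. The Ran cycle median, -0.045, was 0.0045 and 0.086 under them and 0.037 with transcripts kept apart. Without 1 library these medians ran from -0.23 to -0.20 for mRNA export, -0.077 to -0.036 for the envelope and 0.031 to 0.14 for importins and exportins, while 2 turned sign, from -0.21 to 0.20 for the Ran cycle and -0.11 to 0.075 for the COPII and GATOR2 partners. For these values the cause was not tested. No value could be had without the control, the only library of its group.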
